A study of Mus musculus with 30 samples.

Results

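The 10 genes described here are 4 genes of the acute-phase response and its cytokine (*Saa3*, *Lcn2*, *C3*, *Il6*), the gene of an antagonist of IL-1 (*Il1rn*) and 5 chemokine genes (*Cxcl12*, *Cxcl1*, *Cxcl5*, *Ccl2*, *Ccl7*). They were taken by symbol, 1 Ensembl gene for each, out of 56941 genes counted in every library, and followed over dose at 6 h and at 24 h. As they were chosen with earlier results of these data known, the number of them called is not independent of the choice. The cells were mHypoA-2/12, hypothalamic neurons of adult mice kept dividing as a line by a temperature-sensitive form of the SV40 large T antigen, which a retrovirus brought in. They received cannabidiol (CBD), a plant cannabinoid, at 0.325, 0.75, 1.5 or 3 µM, or the vehicle alone, and every group, the vehicle included, held DMSO at 0.1%. Each of the 10 groups, 5 at each time, had 3 libraries of 3′ mRNA-Seq, which are numbered here within a group in the order of their labels. All of them come from 1 line, and the labels do not say that the libraries of a group were separate cultures, so the p-values measure the spread between these libraries, which may be technical.

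Acute-phase proteins are secreted in inflammation, when IL-6 and IL-1 act through STAT3, NF-κB and C/EBP factors. The liver is their main source, but serum amyloid A3 (*Saa3*), lipocalin-2 (*Lcn2*) and complement C3 (*C3*) are also made elsewhere, in the brain mainly by glia. Chemokines are small secreted proteins that draw leukocytes along a gradient: CXCL1 and CXCL5 attract neutrophils through CXCR2, CCL2 and CCL7 attract monocytes through CCR2, and CXCL12, which many stromal cells and some neurons release without a stimulus, acts on CXCR4. The product of *Il1rn* occupies the IL-1 receptor without setting off a signal.

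The libraries held 1839621 to 4420675 reads on genes, so that 3 reads, the limit that a count of 0 allows, were worth 0.679 to 1.63 CPM, for counting error only. CPM are the counts of a gene scaled by the reads on genes of its library, with TMM factors computed within a time point. Of 11 neuronal markers none was at 0 in all libraries, but 5 averaged under 1 CPM, and together they summed to 115 to 187 CPM. The 11 markers of fibroblasts and mesenchyme, *Vim*, *Acta2* and *Col1a1* among them, each averaged above 1 CPM over the 30 libraries and summed to 8440 to 11000 CPM, so the neuronal label stood beside mesenchymal markers at high levels. Among 12 markers of microglia and macrophages, *Itgam*, *Tyrobp* and *Adgre1* were at 0 in every library, 6 averaged under 1 CPM, and the sum was 158 to 376 CPM, most of it *Tmem119* (mean 243 CPM). The 6 hepatocyte markers summed to 0 to 8 CPM, with *Alb* at 0, while *Aqp4* of 7 astrocyte markers (sum 38.9 to 105 CPM), *Olig2* and *Sox10* of 6 oligodendrocyte markers (9.16 to 37.3 CPM) and *Cldn5* of 6 endothelial markers (27.1 to 179 CPM, of which 5 averaged under 1 CPM and *Flt1* 76 CPM) were at 0 as well. A pair of libraries stood apart in several of the 10 genes, namely vehicle library 3 of 6 h and library 1 of 3 µM at 24 h. They also held the highest and the lowest sum of endothelial markers, at 179 and 27.1 CPM, and calls that were lost without either are given with the value without it. As these are bulk samples, fewer cells of a type and less RNA per cell cannot be told apart.

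Promoters were read to show the sequence in front of these genes, and RefSeq starts were given for 7 of the 10 (*Saa3*, *Lcn2*, *Il1rn*, *C3*, *Il6*, *Cxcl12* and *Cxcl1*, on GRCm38.p6). The 300 bases from 250 before to 50 after each start were searched on both strands for TTGCNNAA (C/EBP), TGANTCA (AP-1) and the κB motif. Among all 32851 promoters of that length, 10.8% held the first, 7.81% the second and 4.51% the third. *Saa3*, *Lcn2* and *C3* each held 1 C/EBP match, at 99, 216 and 45 bases before the start, and neither of the other motifs. *Il1rn*, with 3 starts, held 1 AP-1 match, 141 bases before the first start. *Cxcl1* held a pair of overlapping κB matches, 71 and 70 bases before the start, *Il6* held 1 match to each motif, and *Cxcl12* held none. The 250 bases before the start are printed below, 5′ to 3′ on the strand of the gene, for the 3 acute-phase genes with a C/EBP match, for *Il1rn* and for *Cxcl1*, with the matched bases in capitals. They lie at chr7:46715677-46715926 (*Saa3*, minus strand), chr2:32387740-32387989 (*Lcn2*, minus strand), chr17:57228137-57228386 (*C3*, minus strand), chr2:24336610-24336859 (*Il1rn*, plus strand) and chr5:90890995-90891244 (*Cxcl1*, plus strand). A match is a stretch of letters, and no binding was measured.
Saa3: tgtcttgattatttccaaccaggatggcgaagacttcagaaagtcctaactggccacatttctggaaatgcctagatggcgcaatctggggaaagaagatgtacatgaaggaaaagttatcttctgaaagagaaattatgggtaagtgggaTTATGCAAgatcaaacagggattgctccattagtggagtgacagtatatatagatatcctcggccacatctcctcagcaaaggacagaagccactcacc
Lcn2: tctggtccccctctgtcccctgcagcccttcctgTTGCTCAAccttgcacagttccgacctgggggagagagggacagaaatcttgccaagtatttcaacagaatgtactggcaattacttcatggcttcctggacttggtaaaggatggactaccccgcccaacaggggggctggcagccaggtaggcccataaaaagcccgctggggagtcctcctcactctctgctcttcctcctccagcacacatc
C3: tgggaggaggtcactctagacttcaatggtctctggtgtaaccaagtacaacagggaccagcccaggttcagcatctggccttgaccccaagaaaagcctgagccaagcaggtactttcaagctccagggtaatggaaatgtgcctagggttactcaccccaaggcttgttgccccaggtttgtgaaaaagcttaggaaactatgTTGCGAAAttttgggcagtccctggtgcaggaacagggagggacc
Il1rn: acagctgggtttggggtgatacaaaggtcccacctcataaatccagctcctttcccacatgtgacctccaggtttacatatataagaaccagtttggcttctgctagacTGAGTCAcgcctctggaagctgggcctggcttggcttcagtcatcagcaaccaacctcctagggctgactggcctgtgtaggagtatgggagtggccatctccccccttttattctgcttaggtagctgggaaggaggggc
Cxcl1: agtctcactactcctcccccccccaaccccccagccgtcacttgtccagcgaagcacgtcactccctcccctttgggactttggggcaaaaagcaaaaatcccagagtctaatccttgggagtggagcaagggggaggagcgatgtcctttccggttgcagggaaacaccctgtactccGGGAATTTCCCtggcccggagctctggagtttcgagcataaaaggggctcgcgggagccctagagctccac

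At 24 h *Saa3*, *Lcn2*, *Il1rn* and *Cxcl5* were higher with CBD than with vehicle at 1 or more of the 3 lower doses, and none of the 10 genes was called at 3 µM. None of these calls of 24 h remained with the percentage of reads outside genes as covariate, where their log2 fold changes were 0.93 to 1.19. At 6 h, over the mean of the 4 doses, *Il1rn* and *Saa3* were higher, and *Cxcl1*, *Ccl2* and *Ccl7* were lower. The call of *Il1rn* held in each fit without 1 library. That of *Saa3* was lost without vehicle library 1 or 2, and those of the 3 chemokines without vehicle library 3. A gene was called when its FDR, the Benjamini-Hochberg adjusted p of the quasi-likelihood F-test of edgeR over all genes tested, was below 0.1, and all 10 genes passed the filter on low counts in every comparison. At 24 h, 4 of the 10 were called, all higher, at 0.325 µM (*Saa3*, *Lcn2*, *Il1rn*, *Cxcl5*), where 0.066% of all genes tested were called. At 0.75 µM 3 were called, all higher (*Saa3*, *Il1rn*, *Cxcl5*), against 0.0825% of all genes, and at 1.5 µM 1 was (*Saa3*), against 0.0413%. At 3 µM 0 were called by edgeR and by DESeq2, with 3 at an unadjusted p under 0.05, and 0.00825% of all genes were called. For the mean of the 4 doses against vehicle, 2 were called, both higher (*Saa3*, *Il1rn*), against 0.107% of all genes, and the median log2 fold change of the 10 genes was 0.54, against -0.0063 over all genes.

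At 6 h, 1 of the 10 was called at 0.325 µM (*Il1rn*), against 0.2% of all genes, and 1 at 1.5 µM (again *Il1rn*), against 0.0999%. At 0.75 µM 0 were called by edgeR and by DESeq2, with 3 at an unadjusted p under 0.05, against 0.0749% of all genes. At 3 µM edgeR called 0, with 6 at an unadjusted p under 0.05, and DESeq2 called 1, against 0.05% of all genes by edgeR. For the mean of the 4 doses, 5 were called (*Saa3* and *Il1rn* higher, *Cxcl1*, *Ccl2* and *Ccl7* lower), against 0.749% of all genes, and 2 without vehicle library 3, *Saa3* and *Il1rn*. The median log2 fold change of the 10 genes was 0.09 there, against -0.02 over all genes. The doses of a time point share their 3 vehicle libraries, so the comparisons at 1 time point are not independent of each other.

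**Figure D1:**
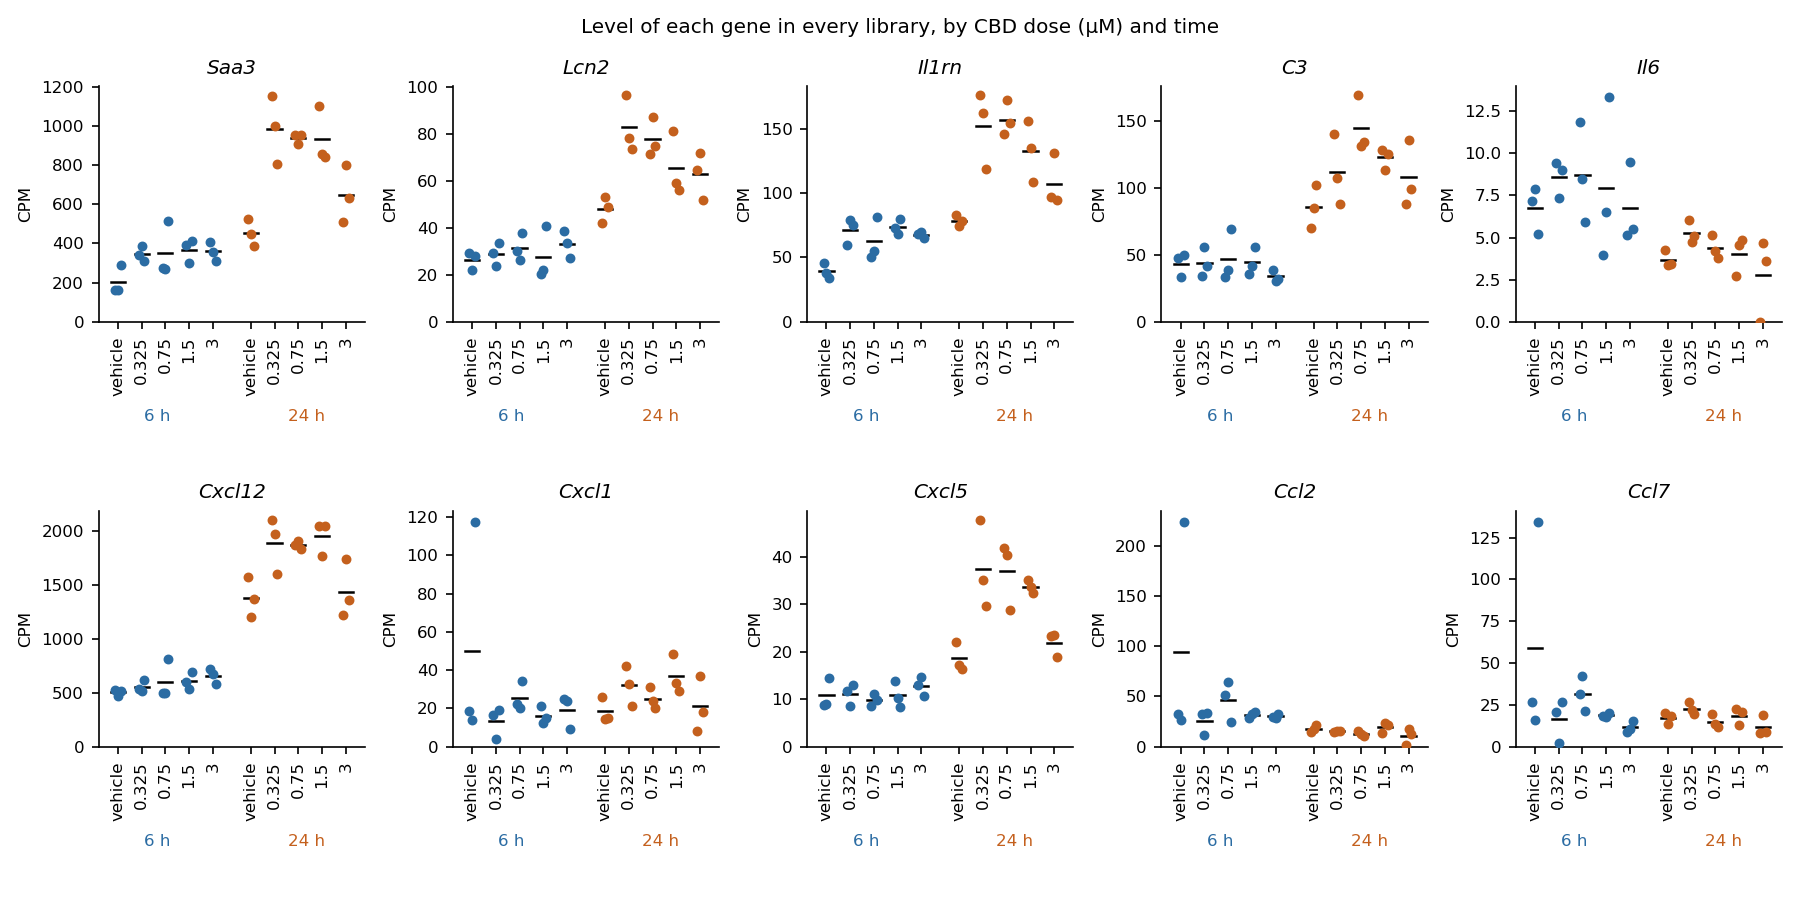
Level in CPM (y axis, from 0, a scale of its own in each panel) of the 10 genes in each of the 30 libraries, by group (vehicle or CBD dose in µM, x axis) at 6 h (blue) and 24 h (orange), with 1 point per library and a line at the mean of 3. *Saa3*, *Il1rn*, *Cxcl5* and *Cxcl12* are highest at the 3 lower doses of 24 h, and 1 vehicle library of 6 h holds 117.5 CPM of *Cxcl1*, 223.5 CPM of *Ccl2* and 134 CPM of *Ccl7*.

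*Saa3* (ENSMUSG00000040026, GRCm38 chr7:46711998-46715700, minus strand) encodes an apolipoprotein of the acute phase that binds to high-density lipoprotein. At 24 h its 3 vehicle libraries held 522, 449 and 388 CPM, against 1154, 1000 and 805 CPM at 0.325 µM and 954, 908 and 956 CPM at 0.75 µM. At 1.5 µM they held 1104, 855 and 841 CPM, and at 3 µM 509.7, 798 and 632.5 CPM. All 9 libraries of the 3 lower doses lay above all 3 vehicle libraries, while library 1 of 3 µM lay below the highest vehicle library. *Saa3* rose by a log2 fold change of 1.12 (standard error 0.15, FDR = 0.000504) at 0.325 µM, 1.05 (0.15, FDR = 0.000862) at 0.75 µM and 1.04 (0.15, FDR = 0.00203) at 1.5 µM, and was 0.51 (0.15, FDR = 0.442) at 3 µM. Over the mean of the 4 doses the log2 fold change was 0.93 (standard error 0.13, FDR = 0.000579), and the call held in each of 15 fits without 1 library, with FDR from 2.61e-06 to 0.0589. With the percentage of reads outside genes, described below with the dose order, as a covariate it was 0.98 with FDR = 0.23.

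At 6 h the vehicle libraries of *Saa3* held 164, 162 and 287.5 CPM and the 12 CBD libraries 270.3 to 514 CPM, with a median of 349 CPM. Groups overlapped through vehicle library 3, which lay above 2 CBD libraries of 0.75 µM, at 276 and 270.3 CPM. No single dose passed the test (log2 fold changes 0.74 to 0.84, FDR 0.2 to 0.266), whereas the mean of the 4 doses did, with a log2 fold change of 0.79 (standard error 0.18, FDR = 0.0514). Without vehicle library 3 it was 1.13 (FDR = 0.000604) and *Saa3* was called at each dose (log2 fold changes 1.09 to 1.18, FDR up to 0.0103), whereas without vehicle library 1 it was 0.66 (FDR = 0.216) and without vehicle library 2 it was 0.65 (FDR = 0.281).

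*Lcn2* (ENSMUSG00000026822, GRCm38 chr2:32384633-32388252, minus strand) encodes lipocalin-2, which binds iron-laden siderophores of bacteria. Its vehicle libraries of 24 h held 42.2, 53 and 49.1 CPM, those of 0.325 µM 96.7, 78.5 and 73.7 CPM, and those of 0.75 µM 71.4, 87.2 and 74.8 CPM. At 1.5 µM they held 81.6, 59.3 and 56.1 CPM, and at 3 µM 64.8, 72.1 and 51.9 CPM, so that only 1 of 12 CBD libraries, of 3 µM, lay below the highest vehicle library. *Lcn2* rose at 0.325 µM by a log2 fold change of 0.79 (standard error 0.16, FDR = 0.0872). The call was kept in 5 of 15 fits without 1 library, with FDR from 0.0309 to 0.547, and it was lost without any 1 library of vehicle or of 0.75 µM, library 1 or 2 of 0.325 µM, or library 2 or 3 of 1.5 µM. Over the mean of the 4 doses it was 0.58 (standard error 0.14), with FDR = 0.124 by edgeR and 0.0317 by DESeq2. With the percentage of reads outside genes as covariate the log2 fold change of *Lcn2* at 0.325 µM was 0.99 (FDR = 0.962). At 6 h it ranged from 22.2 to 29.2 CPM in vehicle and from 20.2 to 40.8 CPM with CBD (mean of the 4 doses, log2 fold change 0.19, standard error 0.20, FDR = 0.824), with overlapping groups.

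*C3* (ENSMUSG00000024164, GRCm38 chr17:57203970-57228136, minus strand) encodes the central component of complement. The gene of a microRNA, *Mir6978*, lies within it on the same strand, and reads there could not be split between them. At 24 h its levels were 69.9, 84.7 and 102 CPM in vehicle, 140.2, 107 and 88.2 CPM at 0.325 µM and 169, 131 and 134 CPM at 0.75 µM. They were 128, 114 and 126 CPM at 1.5 µM and 88.2, 136 and 99.4 CPM at 3 µM. The 6 libraries of 0.75 and 1.5 µM lay above all vehicle libraries, and those of 0.325 and 3 µM overlapped them. No dose passed the test by edgeR, the nearest being 0.75 µM with a log2 fold change of 0.77 (standard error 0.17, FDR = 0.112), which DESeq2 called (FDR = 0.0104) and which edgeR called in 5 of 15 fits without 1 library. The mean of the 4 doses gave 0.51 (standard error 0.14, FDR = 0.295) at 24 h, and at 6 h, where vehicle held 33.2 to 50 CPM and CBD 30.3 to 69.3 CPM, it gave -0.06 (standard error 0.20, FDR = 0.956).

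*Il1rn* (ENSMUSG00000026981, GRCm38 chr2:24336853-24351494, plus strand) was the 1 gene of the 10 whose 12 CBD libraries all lay above all 3 vehicle libraries, at 6 h, where 0.716% of all genes did so, and also at 24 h, where 0.33% did. At 6 h the vehicle libraries held 45.7, 38 and 33.8 CPM, those of 0.325 µM 59.9, 78.8 and 75.3 CPM, and those of 0.75 µM 50.4, 55.3 and 81.7 CPM. At 1.5 µM they held 72.8, 68.2 and 79.6 CPM, and at 3 µM 67.9, 69.6 and 64.8 CPM. The lowest CBD library was thus 50.4 CPM and the highest vehicle library 45.7 CPM. *Il1rn* rose over the mean of the 4 doses by a log2 fold change of 0.82 (standard error 0.16, FDR = 0.0161), and the call held in each of 15 fits without 1 library, with FDR from 0.00844 to 0.0887. It rose by 0.88 (standard error 0.19, FDR = 0.0664) at 0.325 µM and by 0.92 (0.19, FDR = 0.0711) at 1.5 µM, calls that did not hold in all 15 fits without 1 library. The first was lost without vehicle library 2, library 2 of 3 µM or library 2 or 3 of 0.325 µM (FDR up to 0.212), and the second without vehicle library 2 or 3 or any 1 library of 3 or 1.5 µM (FDR up to 0.271). At 0.75 and 3 µM the log2 fold changes were 0.69 (FDR = 0.249) and 0.80 (FDR = 0.13).

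At 24 h the vehicle libraries of *Il1rn* held 83, 74.6 and 78.2 CPM, those of 0.325 µM 176, 162 and 118 CPM, and those of 0.75 µM 146, 172 and 154 CPM. At 1.5 µM they held 156, 135 and 108.7 CPM, and at 3 µM 96.5, 131 and 94.5 CPM. *Il1rn* rose by a log2 fold change of 0.95 (standard error 0.16, FDR = 0.00838) at 0.325 µM and by 1.0 (0.16, FDR = 0.00324) at 0.75 µM, with 0.75 (0.16, FDR = 0.116) at 1.5 µM, which was called in 6 of 15 fits without 1 library and by DESeq2 (FDR = 0.0178), and 0.45 (0.16, FDR = 0.507) at 3 µM. The call at 0.75 µM held in each of 15 fits without 1 library, with FDR up to 0.056, and that at 0.325 µM was lost without library 1 or 2 of that dose or vehicle library 2 or 3, with FDR up to 0.185. Over the mean of the 4 doses it rose by 0.79 (standard error 0.13, FDR = 0.0101), a call lost without vehicle library 3, at 0.79 with FDR = 0.109, and with the percentage of reads outside genes as covariate, at 0.89 with FDR = 0.79.

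*Il6* (ENSMUSG00000025746, GRCm38 chr5:30013114-30019981, plus strand) encodes the cytokine that drives the acute phase in hepatocytes. It was counted with 0 to 32 reads per library, which left standard errors of 0.43 to 0.59 on the log2 scale at single doses. At 6 h it lay at 5.22 to 7.91 CPM in vehicle and at 3.96 to 13.3 CPM with CBD, and at 24 h at 3.38 to 4.27 CPM in vehicle and at 0 to 6.05 CPM with CBD. The 0 was library 1 of 3 µM, and a count of 0 there allows up to 1.19 CPM. The log2 fold changes of the mean of the 4 doses were 0.26 (standard error 0.35, FDR = 0.866) at 6 h and 0.11 (0.44, FDR = 0.99) at 24 h.

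*Cxcl5* (ENSMUSG00000029371, GRCm38 chr5:90759360-90761624, plus strand) and *Cxcl1* (ENSMUSG00000029380, GRCm38 chr5:90891241-90893115, plus strand) lie on the same chromosome and encode ligands of CXCR2. At 24 h *Cxcl5* was at 22, 17.2 and 16.5 CPM in vehicle, 47.7, 35.1 and 29.6 CPM at 0.325 µM and 42, 40.4 and 28.7 CPM at 0.75 µM. It was at 35.1, 33.6 and 32.4 CPM at 1.5 µM and at 23.4, 23.5 and 18.8 CPM at 3 µM. All 9 libraries of the lower doses lay above vehicle, and those of 3 µM overlapped it. *Cxcl5* rose by a log2 fold change of 1.0 (standard error 0.21, FDR = 0.0872) at 0.325 µM and by 0.98 (0.21, FDR = 0.0965) at 0.75 µM, and these calls were kept in 6 and 5 of 15 fits without 1 library, with FDR up to 0.669 and 0.468. Both were lost without any 1 library of 1.5 µM, library 1 or 2 of 0.75 µM, library 2 of 0.325 µM or vehicle library 2 or 3, the call at 0.325 µM also without library 1 of that dose, and the call at 0.75 µM also without library 3 of 3 µM or vehicle library 1. At 1.5 and 3 µM the log2 fold changes were 0.84 (FDR = 0.335) and 0.23 (FDR = 0.786), and the mean of the 4 doses gave 0.76 (standard error 0.17) with FDR = 0.115 by edgeR and 0.0361 by DESeq2. With the percentage of reads outside genes as covariate the log2 fold changes of *Cxcl5* at 0.325 and 0.75 µM were 0.95 (FDR = 0.962) and 0.93 (FDR = 0.932). At 6 h the groups overlapped, with 8.81 to 14.6 CPM in vehicle and 8.34 to 14.7 CPM with CBD.

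*Cxcl1* at 24 h was at 26.1, 14.5 and 15.1 CPM in vehicle, and 10 of the 12 CBD libraries lay between 20 and 48.2 CPM, with libraries 1 and 3 of 3 µM at 8.36 and 18.4 CPM. Its log2 fold change was 0.57 (standard error 0.27, FDR = 0.729) for the mean of the 4 doses, and the largest for 1 dose was 0.94 (0.33, FDR = 0.56) at 1.5 µM. The groups overlapped, and the gene was counted with 20 to 188 reads per library.

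*Cxcl12* (ENSMUSG00000061353, GRCm38 chr6:117168535-117181367, plus strand) was counted with 898 to 9411 reads per library. At 24 h it was at 1579, 1203 and 1369 CPM in vehicle, at 2107, 1976 and 1600 CPM at 0.325 µM, and at 1874, 1912 and 1834 CPM at 0.75 µM. It was at 2050, 1769 and 2054 CPM at 1.5 µM and at 1222, 1741 and 1365 CPM at 3 µM. All 9 libraries of the lower doses lay above vehicle, the lowest of them, at 1600 CPM, next to the highest of vehicle, at 1579 CPM, and those of 3 µM overlapped it. Against vehicle the log2 fold changes at the 3 lower doses were 0.45, 0.44 and 0.50 (standard error 0.13 each, FDR 0.314 to 0.335), which did not pass the test, and 0.06 (0.13, FDR = 0.905) at 3 µM. DESeq2 called each of the 3 lower doses (FDR 0.0647 to 0.0974), and edgeR called 0.325 µM without library 3 of that dose (FDR = 0.0825) and 0.75 and 1.5 µM without library 1 of 3 µM (FDR = 0.0941 and 0.089). At 6 h the levels were 474 to 522 CPM in vehicle and 494 to 814 CPM with CBD (mean of the 4 doses, log2 fold change 0.27, standard error 0.13, FDR = 0.483).

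*Ccl2* (ENSMUSG00000035385, GRCm38 chr11:82035571-82037453, plus strand) and *Ccl7* (ENSMUSG00000035373, GRCm38 chr11:82045712-82047525, plus strand) are neighbours on chromosome 11 and ligands of CCR2. A gene model on the other strand, *Gm17268*, overlaps *Ccl2*, and as the strand setting of the counting is not given in the sources used here, reads of the pair may not be separated. At 6 h the vehicle libraries held 33, 26.9 and 223.5 CPM of *Ccl2*, 26.4, 15.8 and 134 CPM of *Ccl7* and 18.7, 13.7 and 117.5 CPM of *Cxcl1*. Vehicle library 3 was at 7.46, 6.35 and 7.24 times the mean of the other two for these chemokines, at 1.77 times for *Saa3*, and between 0.692 and 1.64 times for the remaining 6 genes. The 12 CBD libraries lay at 11.3 to 64.2 CPM of *Ccl2*, 1.94 to 42 CPM of *Ccl7* and 4.27 to 34.5 CPM of *Cxcl1*, and in each gene vehicle libraries 1 and 2 lay within that range. At 3 µM the libraries held 8.79, 10.8 and 15.3 CPM of *Ccl7*, all below vehicle. Each other dose had libraries above the lowest vehicle library of *Ccl7*.

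Over the mean of the 4 doses at 6 h *Ccl2* fell by 1.59 on the log2 scale (standard error 0.35, FDR = 0.04), *Ccl7* by 1.75 (0.39, FDR = 0.0398) and *Cxcl1* by 1.53 (0.38, FDR = 0.0745) with all 15 libraries. Without vehicle library 3 the log2 fold changes were 0.13 (FDR = 0.899), -0.20 (FDR = 0.879) and 0.17 (FDR = 0.897). DESeq2 called none of these 3 with all 15 libraries either (FDR = 0.274, 0.318 and 0.385). The call of *Cxcl1* also depended on other libraries and was lost without any 1 library of 3 µM, library 2 or 3 of 1.5 µM, or library 1 or 2 of 0.75 µM. No single dose was called for any of these genes with all 15 libraries, while vehicle library 1 or 2 left out gave calls at 0.325 µM (*Ccl2*, *Ccl7*, *Cxcl1*, lowest FDR 0.047) and at 3 µM (*Ccl7*, lowest FDR 0.0372). The sum of endothelial markers in vehicle libraries 1, 2 and 3 of 6 h was 106, 76.3 and 179 CPM, and that of the microglia and macrophage list 271, 268 and 158 CPM, and their part in the result was not tested.

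**Figure D2:**
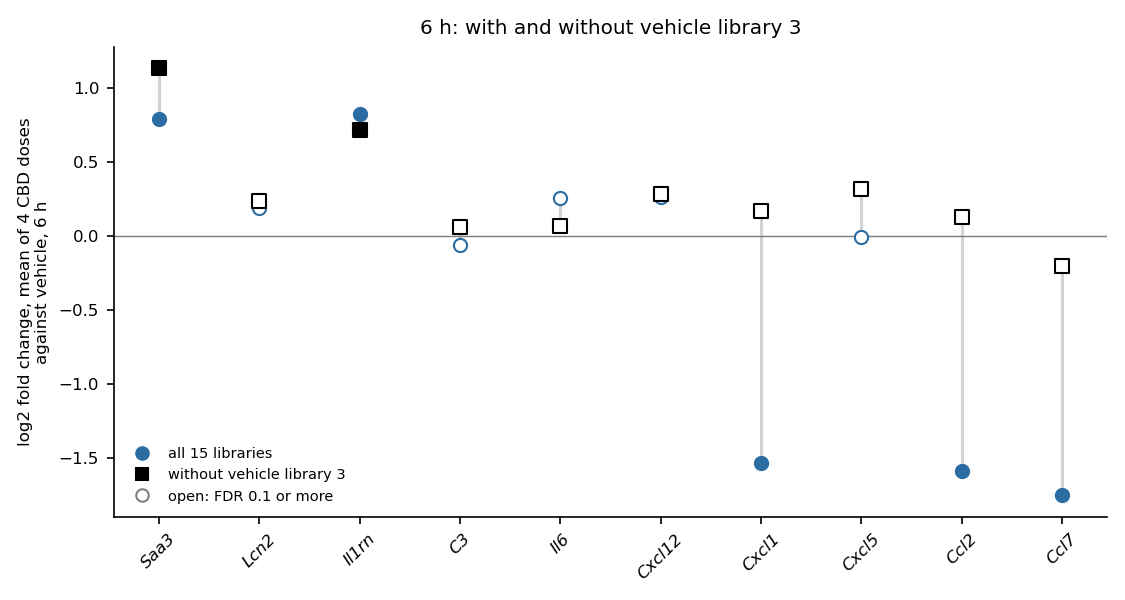
Log2 fold change of the mean of the 4 CBD doses against vehicle at 6 h (y axis) for each of the 10 genes (x axis), with all 15 libraries (blue circles) and without vehicle library 3 (black squares). Filled symbols have an FDR below 0.1 (edgeR), and *Cxcl1*, *Ccl2* and *Ccl7* go from between -1.53 and -1.75 to between -0.20 and 0.17.

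At 24 h *Ccl2* lay at 14.7, 17.9 and 21.3 CPM in vehicle and at 1.67 to 23.6 CPM with CBD, and *Ccl7* at 20.4, 13.5 and 18.2 CPM in vehicle and at 8.36 to 26.6 CPM with CBD. The lowest value of *Ccl2* was library 1 of 3 µM, with 4 reads. Neither passed the test, with log2 fold changes of the mean of the 4 doses of -0.31 (standard error 0.28, FDR = 0.918) and -0.07 (0.23, FDR = 0.985).

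**Figure D3:**
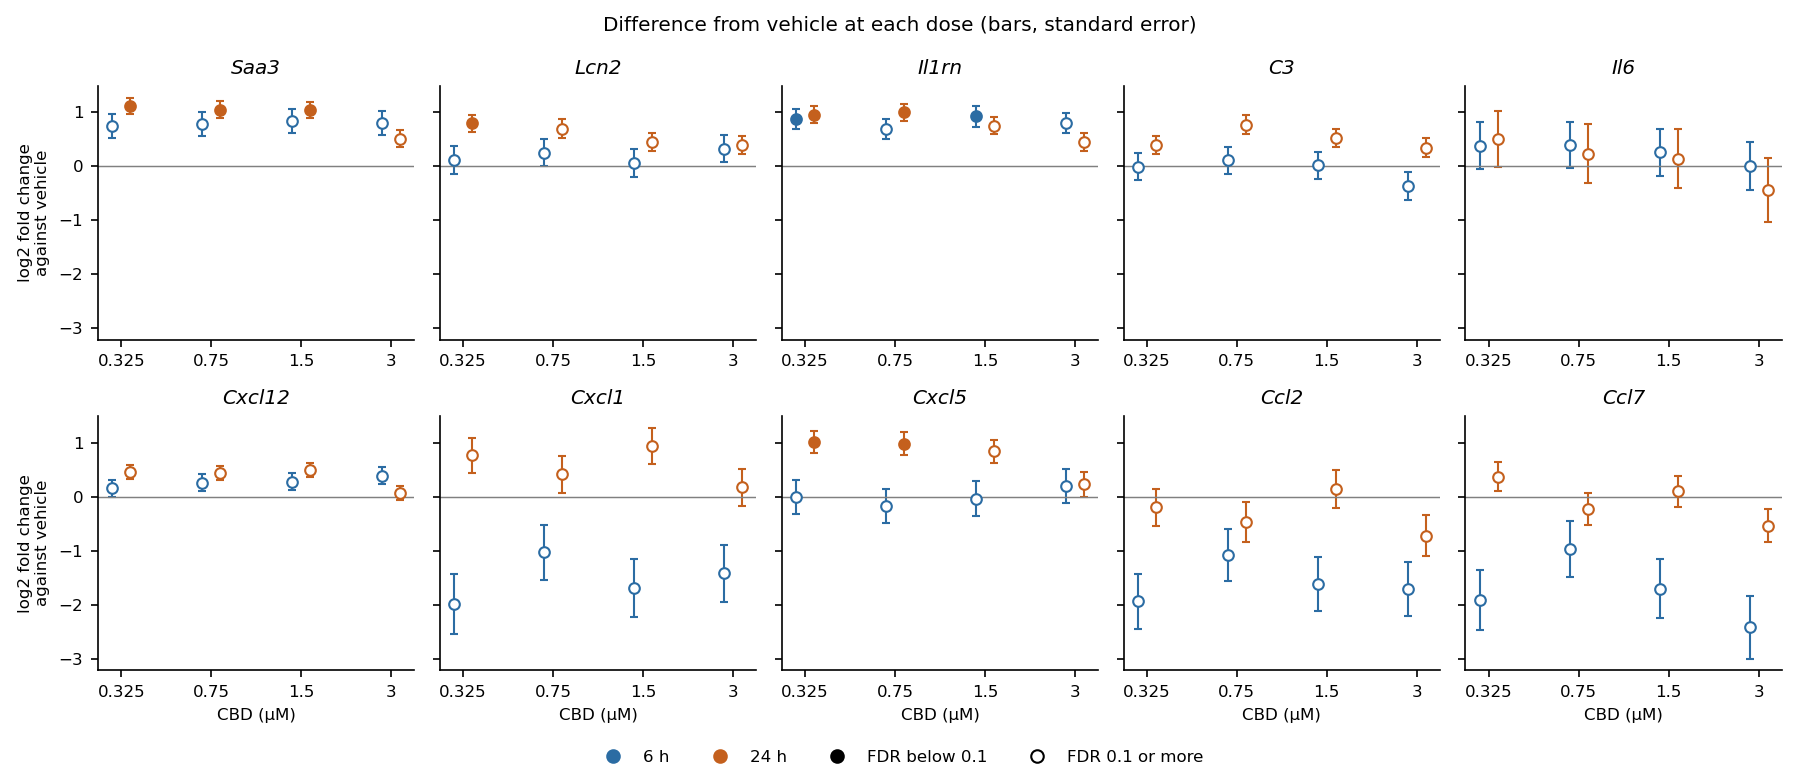
Log2 fold change against vehicle (y axis) at each CBD dose in µM (x axis) for each of the 10 genes, at 6 h (blue) and 24 h (orange), with bars for the standard error and filled circles where the FDR was below 0.1 (edgeR). *Saa3*, *Il1rn* and *Cxcl5* at 24 h are near 1 at the 2 lowest doses and at 0.51, 0.45 and 0.23 at 3 µM. The 6 h points of *Cxcl1*, *Ccl2* and *Ccl7* include vehicle library 3, in which these genes were high.

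The dose order at 24 h was tested without the vehicle, as 3 µM against the 3 lower doses. This contrast was chosen with earlier results of these data known. Of the 10 genes 4 were called, all lower at 3 µM, against 10.5% of all genes tested, and all 10 log2 fold changes were below 0, with a median of -0.54 against 0.0053 over all genes. *Cxcl5* fell by 0.72 on the log2 scale (standard error 0.18, FDR = 0.023), *Saa3* by 0.56 (0.13, FDR = 0.012), *Il1rn* by 0.45 (0.13, FDR = 0.0411) and *Cxcl12* by 0.40 (0.11, FDR = 0.0281). For any difference among the 4 doses 1 gene was called, *Saa3* (FDR = 0.0918), against 1.93% of all genes, and that call was lost in 8 of 15 fits without 1 library, with FDR up to 0.435. The *Cxcl12* group of 3 µM lay wholly below the group of 0.75 µM, its neighbour in the order of means, and the *Saa3* and *Cxcl5* groups of 3 µM wholly below that of 1.5 µM. In *Cxcl12*, however, library 2 of 3 µM (1741 CPM) lay above library 3 of 0.325 µM (1600 CPM). In *Il1rn* library 2 of 3 µM (131 CPM) lay above library 3 of 0.325 µM (118 CPM) and library 3 of 1.5 µM (108.7 CPM). Among the 3 lower doses neighbouring groups overlapped in each of these 4 genes.

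The calls at this threshold were lost without library 1 of 3 µM, which held the lowest *Saa3*, *Il6*, *Cxcl12*, *Cxcl1*, *Ccl2* and *Ccl7* of all CBD libraries of 24 h. Without it 0 of the 10 genes were called by edgeR, with 4 at an unadjusted p under 0.05 (DESeq2 was not run without single libraries). The log2 fold changes without it stayed below 0, at -0.77 for *Cxcl5* (FDR = 0.134), -0.42 for *Saa3* (FDR = 0.142), -0.39 for *Il1rn* (FDR = 0.248) and -0.30 for *Cxcl12* (FDR = 0.224). Without library 3 of 3 µM 1 gene was called (*Saa3*, -0.55, FDR = 0.0635). Without library 2 of 3 µM, 8 were (all but *Lcn2* and *Il6*). The share of all genes called in these fits is not given here, so the counts may not be particular to the 10 genes. The share of uniquely mapped reads outside genes was 21.4 ± 0.487% (SD, n = 3) at 3 µM and 21.4 ± 0.714% in vehicle at 24 h. It was 19.4 ± 0.266%, 19.4 ± 0.608% and 19.7 ± 0.56% at 0.325, 0.75 and 1.5 µM, the doses at which *Saa3*, *Il1rn*, *Cxcl5* and *Cxcl12* were highest. *Ccl2* and *Ccl7* did not follow that order, with means of 18 and 17.4 CPM in vehicle and 12.9 and 14.9 CPM at 0.75 µM. With that share as a covariate edgeR called 0 of the 10 at any dose of 24 h against vehicle, for their mean, or for 3 µM against the lower doses, with 4 to 7 at an unadjusted p under 0.05. The log2 fold changes of 3 µM against the lower doses were then -0.63 for *Saa3* (FDR = 0.299), -0.59 for *Il1rn* (FDR = 0.348), -0.53 for *Cxcl12* (FDR = 0.304) and -0.67 for *Cxcl5* (FDR = 0.455). As the share separates the groups of 24 h, its part and that of the dose cannot be told apart. For 3 µM library 1 the sum of the microglia and macrophage markers was 233 CPM, against 295 and 303 CPM in libraries 2 and 3, while *Cx3cr1* of that list was at 23.8 CPM, against 9.81 and 18.4 CPM. The sum of endothelial markers was 27.1 CPM, against 57.5 and 61.8 CPM, and their part in the result was not tested. At 6 h the share was 19.4 to 20.2% in the group means, and with it as a covariate *Saa3* and *Il1rn* were among the genes called at each of the 4 doses.

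**Figure D4:**
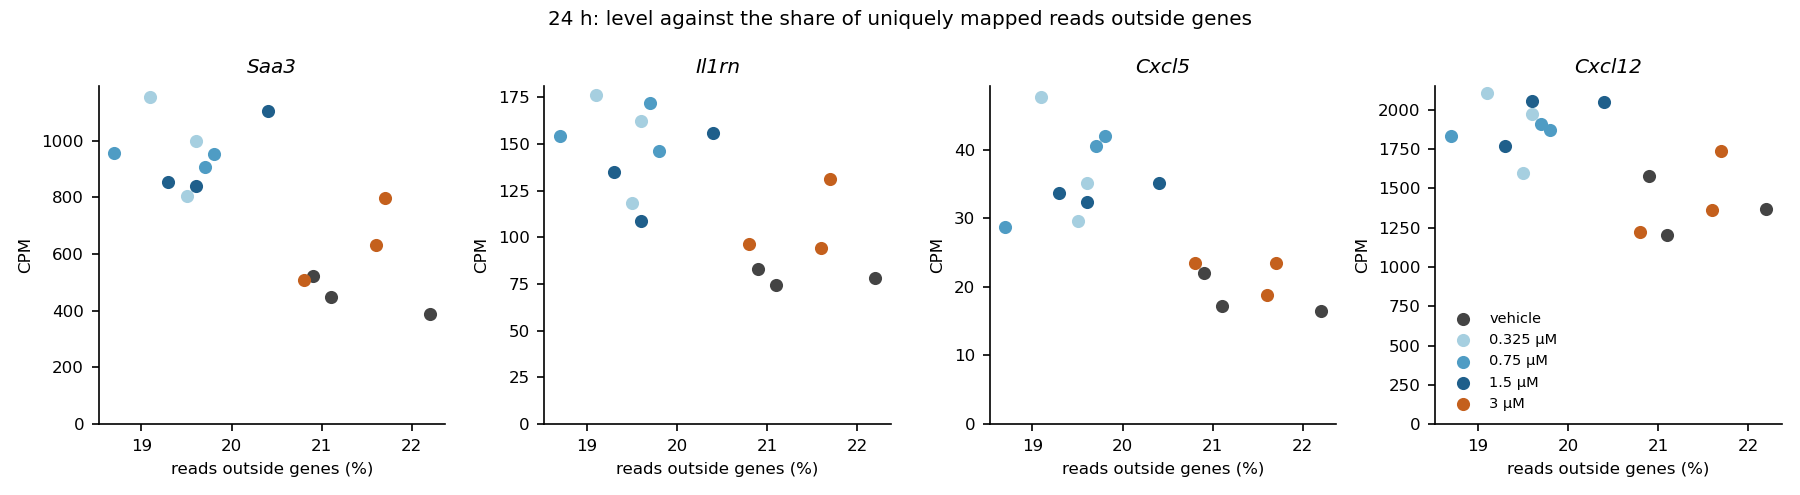
Level in CPM (y axis, from 0) of *Saa3*, *Il1rn*, *Cxcl5* and *Cxcl12* in the 15 libraries of 24 h against the share of uniquely mapped reads outside genes in percent (x axis), with 1 point per library, coloured by group. The 9 libraries of the 3 lower doses lie at 18.7 to 20.4% and the 6 of vehicle and 3 µM at 20.8 to 22.2%, with no overlap on the x axis.

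At 6 h 0 of the 10 genes were called for any difference among the 4 doses or for 3 µM against the 3 lower doses, by edgeR and by DESeq2, with 0 at an unadjusted p under 0.05 in either, and 0% of all genes were called in both. The 4 doses of *Il1rn* at 6 h had means of 71.3, 62.4, 73.5 and 67.5 CPM in order of dose, with overlapping groups, and those of *Saa3* 345, 353, 368 and 360 CPM. Over a range of doses from 0.325 to 3 µM, neither gene thus showed a dose order beyond its spread at that time.

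Vehicle at 24 h was set against vehicle at 6 h in a fit of all 30 libraries, where 9 of the 10 were called, 6 higher and 3 lower at 24 h, against 26.7% of all genes tested. *Cxcl12* rose by a log2 fold change of 1.42 (standard error 0.15, FDR = 5.76e-08), *Saa3* by 1.09 (0.21, FDR = 0.00025), *Il1rn* by 0.98 (0.18, FDR = 0.000232) and *C3* by 0.91 (0.23, FDR = 0.00361). *Lcn2* rose by 0.81 (0.22, FDR = 0.00702) and *Cxcl5* by 0.69 (0.25, FDR = 0.0483), the latter a call lost without any 1 of vehicle libraries 1 and 2 of 6 h and vehicle library 1 of 24 h, with FDR up to 0.202. *Ccl2* fell by 2.50 (0.48, FDR = 0.000316), *Ccl7* fell by 1.86 (0.47, FDR = 0.00472) and *Cxcl1* fell by 1.53 (0.48, FDR = 0.0213). These 3 calls were lost without vehicle library 3 of 6 h, where the log2 fold changes were -0.77 (FDR = 0.2), -0.30 (FDR = 0.72) and 0.20 (FDR = 0.835). The 6 calls of genes higher at 24 h stood without that library. *Il6* was at -0.86 (0.50, FDR = 0.229).

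Whether the change with CBD differed between the times was tested as an interaction, over the mean of the 4 doses. EdgeR called 0 of the 10 genes and DESeq2 0, with 5 at an unadjusted p under 0.05, against 0.235% of all genes. For *Il1rn* the change at 24 h minus that at 6 h was -0.04 on the log2 scale (standard error 0.20, FDR = 0.988) and for *Saa3* 0.15 (0.23, FDR = 0.962). *Cxcl1* had the largest, 2.12 (0.55, FDR = 0.14), which was called without vehicle library 1 or 2 of 6 h or library 1 of 3 µM at 24 h (lowest FDR 0.0389) and was 0.41 without vehicle library 3 of 6 h (FDR = 0.901). *Ccl7* was at 1.68 (0.54, FDR = 0.344) and *Ccl2* at 1.28 (0.54, FDR = 0.68), and without vehicle library 3 of 6 h they were at 0.14 (FDR = 0.972) and -0.43 (FDR = 0.873). *Ccl7* was called without vehicle library 2 of 6 h (2.11, FDR = 0.0987). Among 87 genes of the pathway lists described below edgeR and DESeq2 called 0 for this difference, with 9 at an unadjusted p under 0.05.

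Other genes of the same pathways came from 9 lists holding 199 genes, of which 193 were in the files and 82 at 6 h and 86 at 24 h passed the filter. Against vehicle at 24 h edgeR called 0 of the 86 at any dose or for their mean, and DESeq2 also 0, with 9 to 13 at an unadjusted p under 0.05. The median log2 fold change of the mean of the 4 doses was 0.11 over 8 acute-phase genes, 0.16 over 12 complement genes and -0.04 over 6 other chemokines, against -0.0063 over all genes. At 6 h edgeR called 0 of the 82 at any single dose, with 12 to 14 at an unadjusted p under 0.05, and DESeq2 called 1, *Cp* at 0.75 µM. For the mean of the 4 doses at 6 h 1 of the 82 was called, against 0.749% of all genes. This was *Zfp36*, whose product destroys mRNAs with AU-rich elements, those of cytokines and chemokines among them. Its part in the levels of the 10 genes was not tested. *Zfp36* was at 16.5, 12.1 and 13.2 CPM in vehicle and at 4.49 to 10.3 CPM in the 12 CBD libraries, with no overlap. The share of all genes that lay wholly below vehicle is not given here. It fell by 1.04 on the log2 scale (standard error 0.25, FDR = 0.0608), and by 1.08 (FDR = 0.0862) without vehicle library 3. DESeq2 called 2 list genes for this mean, *Stat3* and *Zfp36*, and without vehicle library 3 edgeR called 5 (*Zfp36*, *Cx3cr1*, *Stat3*, *Nfkb2* and *Ikbkg*). At 24 h *Zfp36* was at 7.43 to 11.3 CPM in vehicle and its log2 fold change was 0.22 (0.25, FDR = 0.938).

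Between 3 µM and the 3 lower doses at 24 h, 11 of the 86 list genes were called, 8 lower and 3 higher at 3 µM. This was close to the share of all genes called, 10.5%. No list was tested as a whole, and that of IL-6 family, receptors and signalling had the most calls, 6 of 16 genes. Of these *Stat3*, the factor that IL-6 and related cytokines activate, fell by 0.58 (standard error 0.13, FDR = 0.0113), from 428 to 463 CPM in the means of the lower doses to 297 ± 65 CPM (SD, n = 3), with vehicle at 381 ± 84 CPM. *Osmr*, the receptor of oncostatin M, fell by 0.71 (0.18, FDR = 0.0237), the cytokine gene *Clcf1* by 0.74 (0.22, FDR = 0.0457), the feedback inhibitor *Socs3* by 0.72 (0.21, FDR = 0.0414) and the kinase *Jak2* by 0.58 (0.18, FDR = 0.0514), while the phosphatase gene *Ptpn11* rose by 0.36 (0.12, FDR = 0.074). Of 12 complement genes *C1s1* fell by 0.66 (0.17, FDR = 0.023) and *Serping1*, which inhibits it, by 0.39 (0.11, FDR = 0.0415). Of 19 genes of NF-κB and C/EBP factors the inhibitor *Nfkbia* fell by 0.45 (0.12, FDR = 0.0321), of 2 chemokine receptor genes *Cx3cr1* rose by 0.95 (0.31, FDR = 0.0657), and of 15 IL-1 family genes *Irak1* rose by 0.34 (0.12, FDR = 0.0964). Means at 3 µM, with vehicle second, were 54.7 and 81.7 CPM of *Osmr*, 11.5 and 14.4 CPM of *Clcf1* and 27.3 and 32.3 CPM of *Socs3*. *Jak2* was at 31.9 and 32.7 CPM, *Ptpn11* at 142 and 127 CPM, *C1s1* at 59.9 and 68.7 CPM and *Serping1* at 183 and 209 CPM. *Nfkbia* was at 200 and 259 CPM, *Cx3cr1* at 17.3 and 11.9 CPM and *Irak1* at 86.1 and 79.2 CPM. None of 8 acute-phase genes, 6 other chemokines, 5 other cytokines and 8 receptors and partners of the 10 genes was called. Without library 1 of 3 µM 0 of these genes were called, without library 3 there were 2 (*Stat3*, *Nfkbia*), and without library 2 there were 22. The share of all genes called in these fits is not given here. The share of reads outside genes, higher at 3 µM than at the lower doses, was not used as a covariate for the list genes. For any difference among the doses of 24 h edgeR called 1 list gene, *Stat3* (FDR = 0.0832), against 1.93% of all genes, and DESeq2 6.

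In vehicle 28 of 87 list genes differed between 24 h and 6 h, 15 higher and 13 lower, against 26.7% of all genes. No list was tested as a whole. Called were 21 without vehicle library 3 of 6 h, where the share of all genes is not given here. Without that library 11 of the 28 calls were lost, those of *Hp* (0.62, FDR = 0.237), *Saa2*, *Ptx3* (-0.08, FDR = 0.909), *C1ra*, *Ccl27a*, *Il1rl1*, *Lif* (-0.96, FDR = 0.553), *Clcf1*, *Csf1* and *Chuk* among them. With all libraries the values were as follows. Of 8 acute-phase genes 5 were called, with *Cp*, the copper carrier ceruloplasmin, at 0.99 (standard error 0.18, FDR = 0.000195), *Hp*, which binds haemoglobin, at 1.04 (0.33, FDR = 0.0238), *Saa2* at 2.03 (0.85, FDR = 0.0871), and with *Ptx3* at -0.91 and *Mt2* at -0.64. Of 12 complement genes 5 were called, all higher, *Cd59a* (1.75), *C4b* (1.32), *Serping1* (0.79), *Masp1* (0.56) and *C1ra* (0.54). Of 17 genes of the IL-6 family list 8 were called, among them *Il11ra1* (1.95, FDR = 1.1e-06), *Stat3* (1.02, FDR = 2.37e-05), *Osmr* (0.79) and *Il6st* (0.65) higher, and the cytokines *Lif* (-2.08), *Clcf1* (-1.09) and *Il11* (-1.04) lower. The other lists had 1 of 6 chemokines (*Ccl27a*, 2.51), 1 of 2 chemokine receptors (*Cx3cr1*, -1.04), 3 of 15 in the IL-1 family (*Il18*, 1.70, *Il1rl1*, -0.85, *Il18rap*, -1.07), 2 of 5 other cytokines (*Csf1*, -0.84, *Tgfb1*, -0.91) and 3 of 19 NF-κB and C/EBP genes (*Nfkbib*, -0.88, *Chuk*, -0.75, *Ikbkg*, -0.62). The list of receptors and partners had 1 of 8, *Il6st*.

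The highest mean levels over all 30 libraries were *Mt1* (1850 CPM), *Mt2* (659 CPM) and *Cp* (225 CPM) for acute-phase proteins, *Serping1* (182 CPM), *C1ra* (150 CPM) and *Masp1* (80.9 CPM) for complement, and *Cx3cl1* (84.6 CPM), *Cxcl16* (58 CPM) and *Ccl5* (13.9 CPM) for the other chemokines. The receptors of the chemokines were low apart from *Ackr3* (21.3 CPM), a scavenging receptor of CXCL12, with *Cx3cr1* at 14.6 CPM and *Ackr4* at 0.861 CPM. *Il1rl1* (288 CPM), *Irak1* (76.9 CPM) and *Myd88* (44.2 CPM) led the IL-1 family, *Stat3* (317 CPM), *Il6st* (210 CPM) and *Jak1* (206 CPM) the IL-6 family, *Csf1* (123 CPM), *Il34* (12.9 CPM) and *Tgfb1* (10.4 CPM) the other cytokines, and *Nfkbia* (243 CPM), *Cebpd* (231 CPM) and *Rela* (191 CPM) the NF-κB and C/EBP factors. Among receptors and partners of the 10 genes the highest were *Il6st*, *Ackr3* and *Il1r1* (18.2 CPM), the receptor that *Il1rn* blocks.

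Across the 15 libraries of 24 h, which share the treatments and the shift in reads outside genes, the log2 CPM of *Saa3* went most closely with *Il1rn* (Pearson r = 0.942), *Amotl2* (0.932), *Mmp13* (0.923), *Syde1* (0.909) and *Mark1* (0.905) among all genes tested. Across the 15 libraries of 6 h the same pairs had r = 0.77, 0.311, 0.777, 0.222 and 0.384, so that only *Il1rn* and *Mmp13*, a collagenase, were near the value of 24 h. Within the 10 genes at 24 h *Saa3*, *Il1rn*, *Cxcl5* and *Cxcl12* had pairwise r of 0.839 to 0.942, and of 0.496 to 0.802 after the group means were taken out. For *Saa3* and *Il1rn* that within-group r was 0.78 at 24 h and 0.379 at 6 h. Over 14 libraries of 6 h without vehicle library 3 it was 0.783, and r before the group means were taken out was 0.906. *Il6* and *Ccl2* had r = 0.9, which was 0.192 over 14 libraries without library 1 of 3 µM. At 6 h *Ccl2* and *Ccl7* had r = 0.913 over 15 libraries and 0.883 over 14 without vehicle library 3, while *Cxcl1* and *Ccl2* had 0.807 and 0.533.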

How the data were processed

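Total RNA of mHypoA-2/12 cells was sequenced as QuantSeq 3′ mRNA-Seq FWD libraries. Per the labels and the study's methods, the authors checked reads with FastQC 0.11.9, trimmed them with Flexbar, aligned them to GRCm39 with STAR 2.7.5c and counted them per Ensembl gene with HTSeq-count 1.99.2, and their notes also name DESeq2 3.16. The strand setting of the counting is not given in the sources used here. The deposited values are raw counts per gene, 1 file per library, and reads that HTSeq placed outside genes (17.7 to 22.2% of uniquely mapped reads), in ambiguous positions or in multiple alignments were kept out of library sizes and tests. Samples were grouped by the labelled dose and time.

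Counts were analysed with edgeR 4.0.16 (limma 3.58.1, R 4.3.3): filterByExpr, TMM scaling and the quasi-likelihood F-test, with 1 fit of 15 libraries per time point and 1 of all 30 for time and interaction. P-values were adjusted over all 12012, 12118 or 12790 genes tested (6 h, 24 h, both), and an FDR below 0.1 was called. Standard errors came from the same fits, and levels are CPM on TMM library sizes. The code was tested on simulated counts with known changes. The 30 pairs of replicates differed by more than sampling noise (chi-square per gene 2.17 to 12), a spread that may be technical. Each library was counted as 1 sample, although the labels do not say that the cultures were separate. Limits for a count of 0 (3 reads) cover counting error only. Alternatives were DESeq2 1.42.0, RLE scaling, no filter, at least 10 reads in every library, 6 libraries only, 1 fit of 30 libraries, the share of reads outside genes as covariate, and each library left out. Shares of all genes called are given for the main edgeR fits, not for these alternatives.

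The 10 genes, the pathway lists (acute-phase proteins, complement, other chemokines, chemokine receptors, IL-1 family, IL-6 family, other cytokines, NF-κB and C/EBP factors, receptors and partners) and the marker lists were chosen with earlier results of these data known. The same holds for the contrast of 3 µM against the 3 lower doses. Named are the 10 genes, list genes that passed the test (1 is not reported here), the 3 genes of highest level in each list, and the 5 genes whose log2 CPM correlated best with *Saa3* over the 15 libraries of 24 h. Symbols and positions came from the GENCODE annotation of GRCm38, matched by Ensembl identifier, and promoters from RefSeq on GRCm38.p6, so that no coordinate refers to the build of the counts. Figures were drawn with matplotlib 3.10.9 (Python 3.11.15).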

Additional observations from a re-analysis of the deposited data

How the results depend on the processing

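Over 16 comparisons the number of the 10 genes called stayed within 1.5 times under RLE scaling in all 16, with DESeq2 in 9, without a filter in 5 and with the covariate in 6. The share of all genes called under each setting is not given here, so a change in a count may not be particular to the 10 genes. DESeq2 called 2 genes at 1.5 µM, 1 at 3 µM and 2 for the mean of 4 doses at 6 h, and 5 at 0.75 µM, 3 at 1.5 µM, 4 for the mean and 4 for any difference at 24 h. Without a filter on low counts 5, 4, 5 and 5 genes were called at the 4 doses of 6 h in ascending order and 1 for any difference, and at 24 h 6 at 0.75 µM, 5 at 1.5 µM, 1 at 3 µM, 6 for the mean, 5 for any difference and 3 for the interaction. With the percentage of reads outside genes as covariate 5, 2, 3 and 4 were called at these doses of 6 h, and 0 at 0.325, 0.75 and 1.5 µM, for the mean, for any difference and for 3 µM against the lower doses at 24 h. All 30 libraries in 1 fit gave 4, 2 and 2 at 0.325, 1.5 and 3 µM of 6 h, and 2 at 0.325 µM and 0 for any difference at 24 h. Only the 6 libraries compared gave 0 at 0.325 and 1.5 µM of 6 h, and 6 at 0.75 µM and 2 at 1.5 µM of 24 h. A minimum of 10 reads gave 3 for the mean at 6 h. Single libraries left out gave 0 to 4, 0 to 1, 0 to 2 and 0 to 2 genes at the 4 doses of 6 h, 2 to 5 for the mean, and at 24 h 1 to 5, 2 to 6, 1 to 3 and 0 to 0 at the doses, 1 to 6 for the mean, 0 to 6 for any difference and 0 to 8 for 3 µM against the lower doses. They gave 6 to 9 for time and 0 to 2 for the interaction. Without single libraries the log2 fold change of the mean of 4 doses turned sign for *C3* (-0.211 to 0.065), *Cxcl1* (-1.946 to 0.168), *Cxcl5* (-0.123 to 0.317) and *Ccl2* (-2.001 to 0.129) at 6 h, and for *Il6* (-0.045 to 0.262) and *Ccl7* (-0.217 to 0.067) at 24 h. It turned for *Cxcl5* at 6 h without a filter (0.009), and for *Ccl2* (0.23) and *Ccl7* (0.332) at 24 h with the covariate. The causes were not tested. No paired analysis was possible because the groups share no replicate numbers in the labels. Depth limits *Il6*, with at most 32 reads per library.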
